A study of Homo sapiens with 6 samples.

Results

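The SMAD family comprises the 8 genes SMAD1 to SMAD7 and SMAD9, which encode the intracellular carriers of TGF-beta and BMP signals. They were followed here through every probe set that the array annotation assigns to one of these symbols alone, which gave 30 probe sets for 8 genes of the 19775 genes measured. The cells were HCT116, an established human colon carcinoma line, transfected with 50 nM of miR-224 precursor molecules (3 arrays) or with 50 nM of control molecules (3 arrays), and total RNA was taken 24 h later. The series describes the arrays as pairs from 3 independent experiments, so arrays of equal number were compared within an experiment. All groups share 1 cell line, grown in serum, and HCT116 is known to carry inactivating mutations of TGFBR2, the type II TGF-beta receptor. Values are expression values on a log scale, read here as log2 although the base is not stated, and their precision is limited by the number of arrays.

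SMAD proteins fall into 3 classes. The receptor-regulated SMADs are phosphorylated by activated type I receptors, SMAD2 and SMAD3 in the TGF-beta and activin branch and SMAD1, SMAD5 and SMAD9 in the BMP branch. SMAD4, the common partner, joins these in the complexes that enter the nucleus and bind target genes, and it is a tumour suppressor in the colon and pancreas. SMAD6 and SMAD7 are inhibitory SMADs, which are induced by the pathway and restrain it. A microRNA guides the silencing machinery to messenger RNAs, mostly through pairing of its seed to a site in the 3′ untranslated region, and lowers their level or translation. SMAD4 has been reported as a direct target of miR-224 in mouse granulosa cells.

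The agent of the experiment is shown first, because its seed sets which sites it can pair with. The capitals mark the seed, bases 2 to 8, of both mature arms of the miR-224 hairpin, as given by RefSeq for GRCh38.p14 on the minus strand of chromosome X.
hsa-miR-224-5p: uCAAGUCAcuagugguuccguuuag
hsa-miR-224-3p: aAAAUGGUgcccuagugacuaca
The 5p arm lies at chrX:151958628-151958652 and the 3p arm at chrX:151958584-151958606. The 2 seeds differ, and the letters that would pair with the 5p seed in a messenger RNA are UGACUUG. Neither arm was measured by the probe sets described here, and sites in the SMAD messenger RNAs were not analysed here.

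Both arrays of experiment 1 stood apart from the other 4. The control probe set at the 5′ part of actin read 4.14 in miR-224 cells and 4.42 in control cells of experiment 1 and averaged 12.39 in the other experiments. The 3′ part of actin averaged 12.53 in experiment 1 and 12.48 in the others. The low 5′ signal was present in both groups of experiment 1. Of 10 colon epithelial markers 9 had a mean at or above 3.48, the median level of all probe sets, among them KRT18, KRT19 and EPCAM, the brightest. The same held for 0 of 4 measured leukocyte markers, 2 of 4 endothelial markers (PECAM1 at 4.47 and VWF at 3.54) and 3 of 5 fibroblast markers (COL1A1 at 5.96, COL1A2 at 4.22 and DCN at 4.07). Mean levels of the epithelial markers ranged from 6.88 to 7.47 over the miR-224 arrays and from 6.83 to 7.54 over the control arrays. Within that list CDX2 (5.33), CDX1 (5.23), VIL1 (3.95), GPA33 (3.65) and CDH17 (2.45) were much dimmer than KRT18 (12.28). KRT8 read 7.30 in miR-224 cells and 6.73 in control cells of experiment 1, and 11.02 to 11.34 in the other experiments. Endothelial markers averaged 2.99 to 3.19 in miR-224 cells and 3.15 to 3.28 in control cells, and fibroblast markers 3.73 to 3.85 in miR-224 cells and 3.66 to 3.77 in control cells. Their part in the results was not tested.

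No SMAD probe set passed the test. With limma and experiment as a block, 0 of the 30 had an adjusted p under 0.05, as was the case for 0.0% of the 54613 probe sets tested, and the lowest adjusted p in the family was 0.27. Before adjustment, 10 SMAD probe sets were lower and 6 higher at a p under 0.05, where 5.39% of all probe sets were lower and 4.41% higher. Of the 6 higher ones, 5 belonged to SMAD2 and 1 to SMAD6. Of the 10 lower ones, 4 belonged to SMAD5, 3 to SMAD3, 2 to SMAD4 and 1 to SMAD6. Among these, 202526_at of SMAD4 (mean level 2.22) and 213565_s_at of SMAD6 (3.07) were below the median level. At or above that level, 8 of 22 SMAD probe sets were lower and 6 higher at that p. Probe sets of a gene read the same transcripts and are not independent of each other, and SMAD4 was taken up with earlier results of these arrays known. The family's probe sets lay on both sides of 0. Their median difference over the 30 was -0.12, with a range of -0.79 to 0.77, while the median over all probe sets was 0.01.

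**Figure D1:**
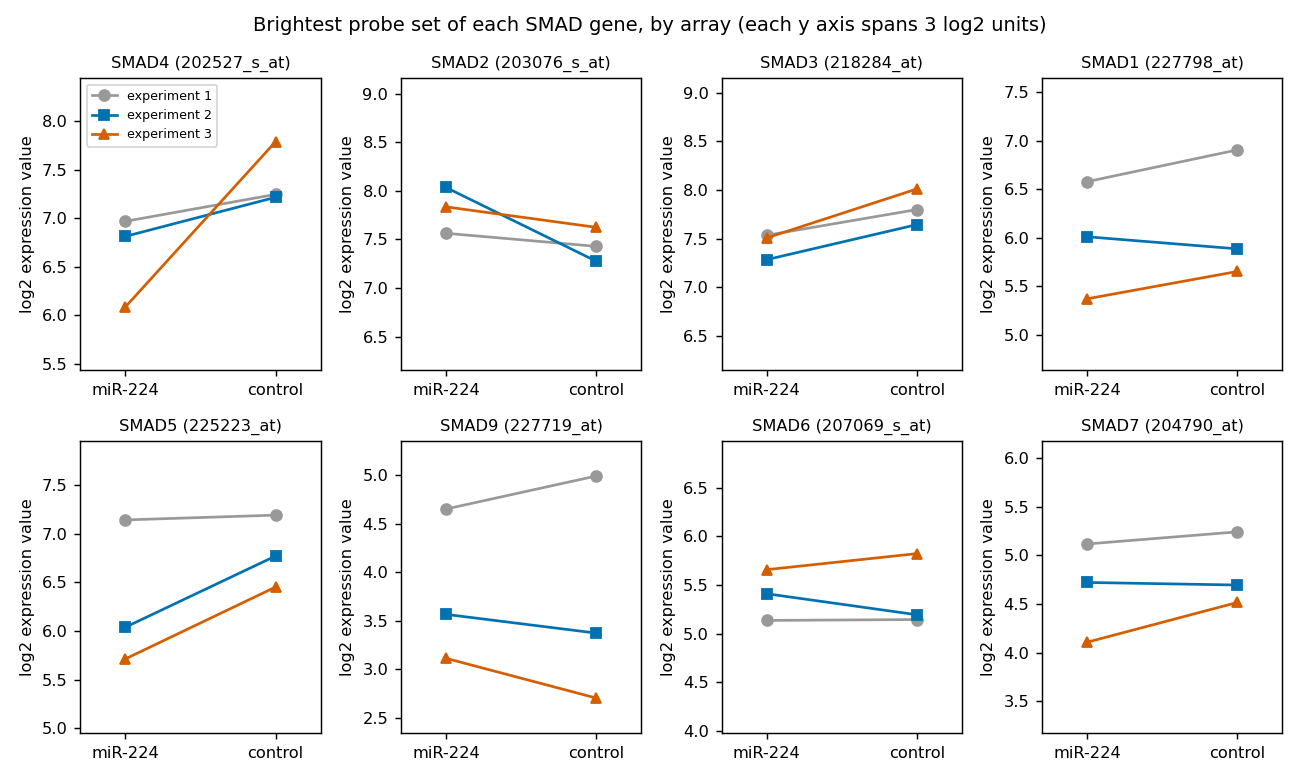
Log2 expression value (y axis, spanning 3 units in each panel) on the brightest probe set of each SMAD gene, in miR-224 cells at the left and control cells at the right, with a line joining the 2 arrays of an experiment. All 3 lines slope the same way for SMAD4, SMAD3 and SMAD5, which were lower in miR-224 cells, and for SMAD2, which was higher, while the lines of the other 4 genes are mixed.

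SMAD4, the common partner of the family, had the lowest mean difference among the SMAD probe sets. Its brightest probe set, 202527_s_at, read 6.97, 6.81 and 6.09 in miR-224 cells of experiments 1, 2 and 3, against 7.25, 7.22 and 7.79 in control cells. All miR-224 arrays were below all control arrays, and the array of experiment 3 was the lowest of the miR-224 cells while its control was the highest of the controls. The differences were thus -0.28, -0.40 and -1.70, a mean of -0.79 with an SD of 0.79 over the 3 experiments. The limma standard error was 0.24 (95% interval -1.35 to -0.23, limma adjusted p = 0.37), and the mean corresponds to 57.7% of the control level. That error borrows from all probe sets and is smaller than the SD of these 3 differences alone would give. An exact sign-flip test over the 3 pairs gave p = 0.25 (two-sided), the smallest it can give. Experiment 3 decided the size: without it the difference was -0.34 (adjusted p = 0.58), against -1.05 without experiment 1 and -0.99 without experiment 2.

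The other SMAD4 probe sets differed less. Probe set 235725_at, also above the median level, read 5.14, 4.62 and 4.62 in miR-224 cells and 5.12, 4.79 and 4.83 in control cells. The groups overlapped, and the mean difference was -0.12 ± 0.11 (SE), about level in experiment 1 at 0.02 and lower in experiments 2 and 3 at -0.17 and -0.21. The remaining 3 were dim, with mean levels of 1.86 to 2.41, where RMA values carry little signal. One of them, 202526_at, read 1.93, 2.18 and 1.84 in miR-224 cells and 2.31, 2.48 and 2.58 in control cells. Its groups did not overlap either, and its difference of -0.48 ± 0.12 (limma adjusted p = 0.30) was also lowest in experiment 3, at -0.74. The dim probe sets 1565703_at and 1565702_at stood at -0.10 ± 0.10 and 0.06 ± 0.11. Averaged over its 5 probe sets, SMAD4 was lower by -0.29 ± 0.10.

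SMAD2, which carries TGF-beta and activin signals, was higher in miR-224 cells on all 5 of its probe sets above the median level, in each experiment. Among probe sets at or above that level, 16.9% were higher in all 3 experiments. The brightest, 203076_s_at, read 7.56, 8.03 and 7.84 in miR-224 cells against 7.43, 7.28 and 7.63 in control cells. The groups overlapped, since the miR-224 array of experiment 1 lay below the control of experiment 3. The difference was 0.37 ± 0.14 (SE), at 0.13, 0.76 and 0.21 in experiments 1, 2 and 3. The largest difference was on 203077_s_at, which read 6.24, 6.27 and 5.82 in miR-224 cells and 5.92, 4.85 and 5.25 in control cells. All miR-224 arrays but that of experiment 3 were above all controls, and the difference was 0.77 ± 0.19 (limma adjusted p = 0.30, 171% of the control level).

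The SMAD2 difference was largest in experiment 2 on all 5 of these probe sets, at 0.65 to 1.42, where the control array read lowest of the 3 controls. Probe set 203075_at showed this most, with 7.87, 7.53 and 7.06 in miR-224 cells and 7.60, 6.14 and 6.96 in control cells. Its mean of 0.59 ± 0.22 became 0.19 without experiment 2, and that of 203076_s_at became 0.17. Those of 226563_at (0.38 ± 0.13), 235598_at (0.49 ± 0.13) and 203077_s_at became 0.25, 0.33 and 0.45. Without experiment 1 the differences were 0.48 for 203076_s_at, 0.75 for 203075_at, 0.35 for 226563_at, 0.51 for 235598_at and 1.00 for 203077_s_at. The dim sixth probe set, 239271_at, had a mean difference of 0.01 ± 0.12.

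SMAD3, the other SMAD of the TGF-beta and activin branch, was lower, opposite in sign to SMAD2. Its brightest probe set, 218284_at, read 7.53, 7.28 and 7.51 in miR-224 cells and 7.80, 7.64 and 8.01 in control cells. No miR-224 array reached the lowest control. The differences of -0.26, -0.36 and -0.50 were close to each other, with a mean of -0.38 ± 0.11 (limma adjusted p = 0.34, 77.1% of control) and a range of -0.43 to -0.31 when each experiment was left out. Probe set 205398_s_at stood at -0.20, -0.32 and -0.74, a mean of -0.42 ± 0.13 that was -0.26 without experiment 3.

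The remaining SMAD3 probe sets read very low in experiment 1. On 205396_at the miR-224 arrays read 3.47, 6.11 and 5.78 and the control arrays 3.41, 6.60 and 6.60. Both arrays of experiment 1 lay far below the rest, a shift of -2.83 on average, and there the groups stood level, with a difference of 0.06. In experiments 2 and 3 it was -0.49 and -0.82, and the mean was -0.66 without experiment 1, -0.22 without experiment 3 and -0.42 over all 3. Probe set 205397_x_at, whose suffix marks probes that may match other transcripts, had a similar shift in experiment 1 (-2.65) and differences of 0.07, 0.0039 and -0.45.

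**Figure D2:**
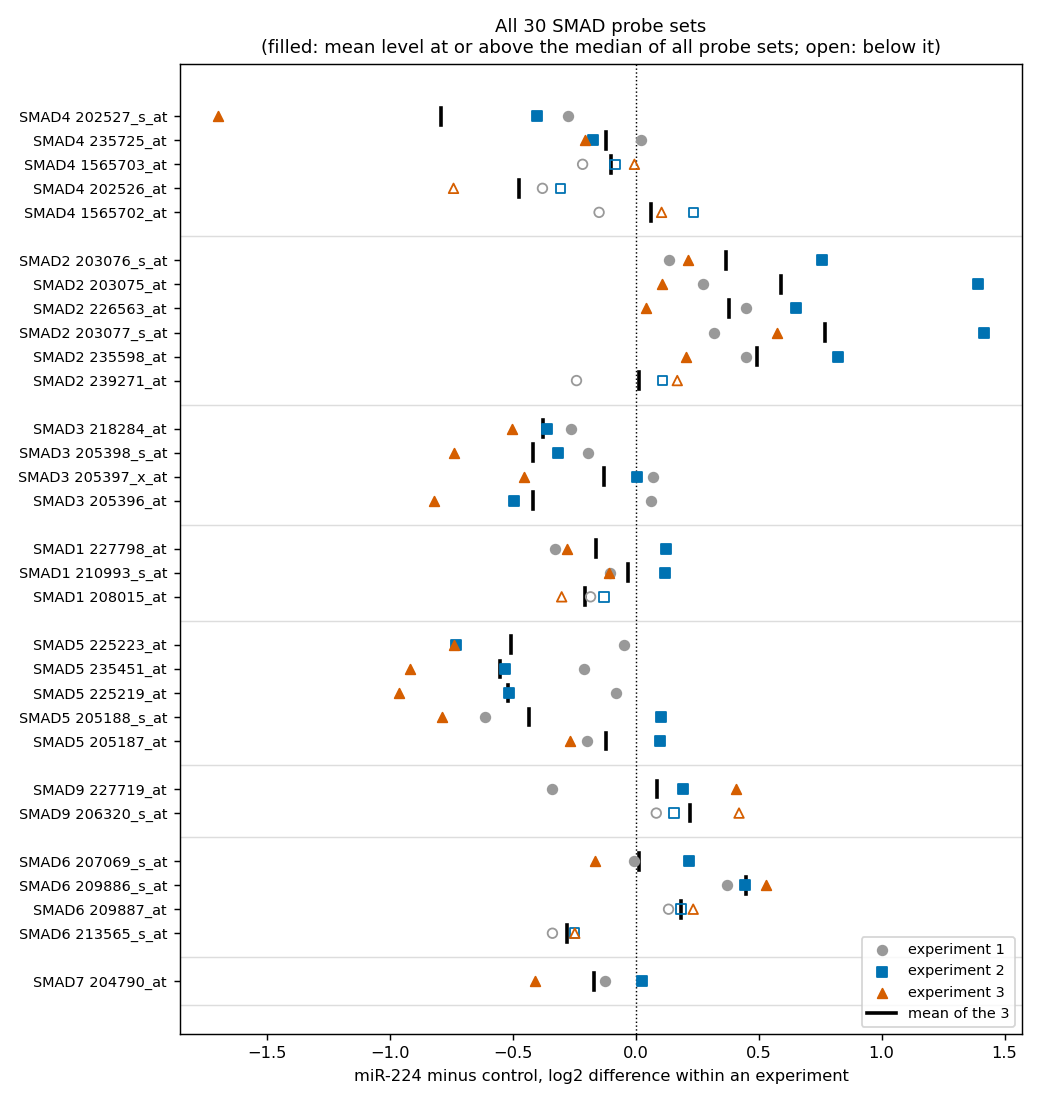
Log2 difference, miR-224 minus control, within each experiment (points) and their mean (bar) for all 30 SMAD probe sets, ordered by gene. Filled points are probe sets with a mean level at or above the median of all probe sets. The 5 filled SMAD2 rows lie right of 0 throughout, whereas the rows of SMAD3 and SMAD5 lie mostly left of it, and experiment 3 of SMAD4 202527_s_at stands alone at -1.70.

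SMAD5, of the BMP branch, was lower on all 5 of its probe sets. The brightest, 225223_at, read 7.14, 6.04 and 5.71 in miR-224 cells and 7.19, 6.77 and 6.45 in control cells. The miR-224 arrays of experiments 2 and 3 were below every control, and that of experiment 1 stood close to its own control. The difference was -0.51 ± 0.15 (limma adjusted p = 0.36, 70.4% of control). Probe set 235451_at read 6.76, 5.89 and 5.53 in miR-224 cells and 6.96, 6.43 and 6.44 in control cells, a difference of -0.55 ± 0.14. Probe set 225219_at read 6.07, 5.74 and 5.35 in miR-224 cells and 6.15, 6.26 and 6.32 in control cells, where the groups did not overlap, and stood at -0.52 ± 0.16.

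These 3 SMAD5 probe sets gave close values in each experiment, at -0.21 to -0.05 in experiment 1, -0.73 to -0.52 in experiment 2 and -0.96 to -0.74 in experiment 3. Without experiment 1 their differences were -0.74, -0.73 and -0.74, and that of 225223_at had the lowest adjusted p of any SMAD probe set in that fit (limma, 0.074). Without experiment 3 they were -0.39, -0.37 and -0.30. The other probe sets did not follow this order. Probe set 205188_s_at stood at -0.61, 0.10 and -0.79 in experiments 1, 2 and 3, and 205187_at, near the median level, at -0.20, 0.10 and -0.27.

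SMAD1 and SMAD9 are the other SMADs of the BMP branch, and on their brightest probe sets the sign differed between experiments. SMAD1 on 227798_at read 6.58, 6.01 and 5.37 in miR-224 cells and 6.90, 5.89 and 5.65 in control cells. The groups overlapped over most of their range, with a difference of -0.16 ± 0.12 and an interval of -0.44 to 0.12, and it ranged from -0.30 to -0.08 with an experiment left out. Its probe set 210993_s_at stood at -0.03 ± 0.11, and both of its arrays in experiment 1 read low, a shift of -3.02. The dim 208015_at read 2.23, 2.25 and 2.16 in miR-224 cells and 2.41, 2.37 and 2.47 in control cells. All miR-224 arrays were below all controls, with differences of -0.18, -0.13 and -0.30 in experiments 1, 2 and 3 and a mean of -0.21 ± 0.10 (limma adjusted p = 0.57). SMAD9 on 227719_at read 4.65, 3.57 and 3.11 in miR-224 cells and 4.99, 3.37 and 2.71 in control cells. It was lower in experiment 1 and higher in experiments 2 and 3, with a mean of 0.09 ± 0.15, and its level differed more between experiments than between groups. The dim 206320_s_at was higher in each experiment, at 0.08, 0.16 and 0.42, with a mean of 0.22 ± 0.11 (limma adjusted p = 0.57).

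The inhibitory SMAD6 gave probe sets of opposite sign. On 209886_s_at the miR-224 arrays read 4.11, 4.47 and 4.64 and the control arrays 3.74, 4.02 and 4.11. It was higher by 0.37, 0.45 and 0.53 in experiments 1, 2 and 3, a mean of 0.45 ± 0.10 (limma adjusted p = 0.27, the lowest in the family), although the groups met at 4.11. On the dim 213565_s_at the miR-224 arrays read 2.89, 2.95 and 2.94 and the control arrays 3.23, 3.20 and 3.19. Here the groups were apart in the other direction, at -0.28 ± 0.10. The brightest SMAD6 probe set, 207069_s_at, stood between these at 0.01 ± 0.11, and the dim 209887_at at 0.18 ± 0.10. No single direction can be given for SMAD6.

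SMAD7, an inhibitory SMAD that is itself induced by TGF-beta, had 1 probe set. It read 5.12, 4.72 and 4.11 in miR-224 cells and 5.24, 4.69 and 4.52 in control cells. The groups overlapped and the difference was -0.17 ± 0.12, with an interval of -0.44 to 0.10. It was -0.05 without experiment 3, in which it stood at -0.41.

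Over the family, 7 probe sets had all miR-224 arrays below all controls and 1 had them above, where the background over all probe sets was 2.64% and 4.02%. The 7 lay in SMAD4 (3), SMAD1, SMAD3, SMAD5 and SMAD6 (1 each), and 4 of them were dim. Among the 22 SMAD probe sets at or above the median level, 6 were lower and 6 higher in all 3 experiments, against 17.5% and 16.9% of all probe sets at that level. The 6 higher ones were 5 of SMAD2 and 1 of SMAD6. The 6 lower ones were 3 of SMAD5, 2 of SMAD3 and 1 of SMAD4.

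The level in experiment 1 was compared with that in experiments 2 and 3 for the same 22 probe sets. The shift ranged from -3.02 to 1.63 with a median of 0.16, compared with 0.04 over all probe sets at that level. Only 3 SMAD probe sets lost more than 1 log2 unit there, 210993_s_at of SMAD1 and 205397_x_at and 205396_at of SMAD3. Those of SMAD2, SMAD4 and SMAD5 shifted by -0.66 to 0.92. Differences were not smaller in experiment 1 throughout the family. On the brightest probe sets they were nearest 0 there for SMAD2, SMAD3, SMAD4, SMAD5 and SMAD6, but not for SMAD1, SMAD7 and SMAD9. On 226563_at, 235598_at and 203075_at of SMAD2 they were smallest in experiment 3. The part of the 5′ loss in these differences was not tested.

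**Figure D3:**
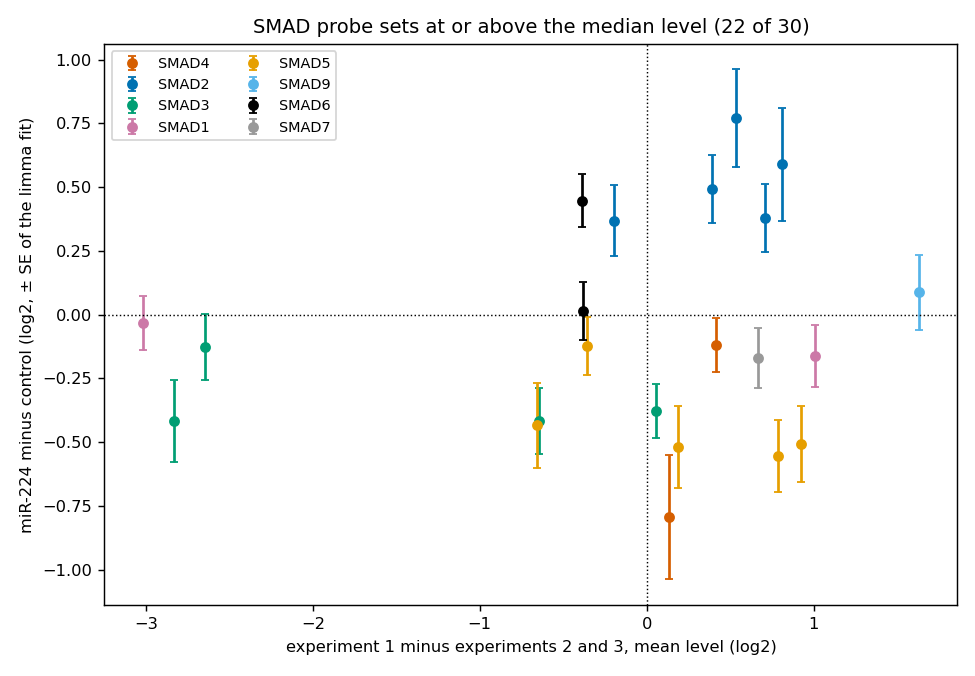
Difference between miR-224 and control cells (y axis, log2, with the limma standard error) against the shift of experiment 1 from experiments 2 and 3 (x axis, log2) for the 22 SMAD probe sets at or above the median level. The 3 points at the left, 1 of SMAD1 and 2 of SMAD3, shifted by -3.02 to -2.65, and the SMAD2 points lie above 0 while those of SMAD3, SMAD4 and SMAD5 lie below it.

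For the rest of the pathway each gene was represented by its brightest probe set, and the 3 brightest genes of each list are named whatever their difference. None of the 72 measured genes passed limma (0.0% of the 19775 genes did). Before adjustment, 5.19% of all genes were lower and 5.05% higher at a p under 0.05, and 46.8% had a lower mean, with a median of 0.01. On the same reading, 3 SMAD genes (SMAD3, SMAD4, SMAD5) were lower and 1 (SMAD2) higher at that p, of 8.

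Upstream of the SMADs, the ligands had 7 of 11 members with a higher mean and a median of 0.08, with 3 higher and 1 lower at an unadjusted p under 0.05. INHBA, 1 of these 3, was dim at a mean level of 2.90, and 8 of the 11 ligands were at or above the median level. BMP4, a ligand of the BMP branch, read 8.21, 8.58 and 9.04 in miR-224 cells and 7.75, 8.12 and 8.53 in control cells. It was higher by a like amount in each experiment, at 0.46, 0.46 and 0.51 (0.48 ± 0.10 SE, limma adjusted p = 0.26), though the groups overlapped. TGFB1, the main TGF-beta ligand, stood at 0.55, 0.17 and 0.21 in experiments 1, 2 and 3, a mean of 0.31 ± 0.12 that was 0.19 without experiment 1. BMP7 stood at 0.12 ± 0.10. Of 12 measured receptors 8 had a higher mean, with a median of 0.04, and 4 were higher and 1 lower at that p. BMPR1B, 1 of these 4, was dim at a mean level of 2.62, and 10 of the 12 receptors were at or above the median level. TGFBR2 stood at -0.14 ± 0.12 (-0.26 without experiment 1), ACVR1B, a type I activin receptor, at 0.03 ± 0.10, and TGFBR1, the type I TGF-beta receptor, at 0.31 ± 0.12.

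Beside the SMADs, 11 cofactors and corepressors had a median of -0.04, and 0 had an unadjusted p under 0.05. TGIF1, a corepressor that binds SMAD2, stood at 0.17 ± 0.10, SNW1, a transcriptional coregulator, at -0.02 ± 0.10 and SKI, a corepressor that binds SMAD4, at -0.05 ± 0.11. Genes of SMAD turnover and localisation had a median of 0.05 over 18 members, with 1 lower and 1 higher at that p. STRAP, a receptor-associated inhibitor of the pathway, stood at 0.01 ± 0.10. STUB1 and SMURF2, ubiquitin ligases that act on SMADs or their receptors, stood at 0.06 ± 0.11 and 0.02 ± 0.11.

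Downstream, 13 of 20 measured target genes of TGF-beta and BMP had a lower mean, with a median of -0.19, the lowest of the lists outside the SMADs. At an unadjusted p under 0.05, 6 were lower and 1 was higher. In all 3 experiments 9 were lower, against 14.4% of all genes and 17.5% of probe sets at or above the median level. Of the 20 targets 17 were at or above that level, and the list was chosen with earlier results of these data known. CDKN1A, the gene of the cell cycle inhibitor p21, which also answers to p53, read 8.25, 9.25 and 9.60 in miR-224 cells and 8.79, 10.21 and 10.95 in control cells. Its difference of -0.95 ± 0.15 had a limma adjusted p of 0.23. ID1, a BMP target that inhibits differentiation factors, stood at -0.71, -0.27 and -0.26 in experiments 1, 2 and 3, a mean of -0.41 ± 0.12 that was -0.26 without experiment 1. Its probe set read low in both groups of experiment 1, a shift of -6.48. ID2, a relative of ID1, stood at -0.19 ± 0.10.

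**Figure D4:**
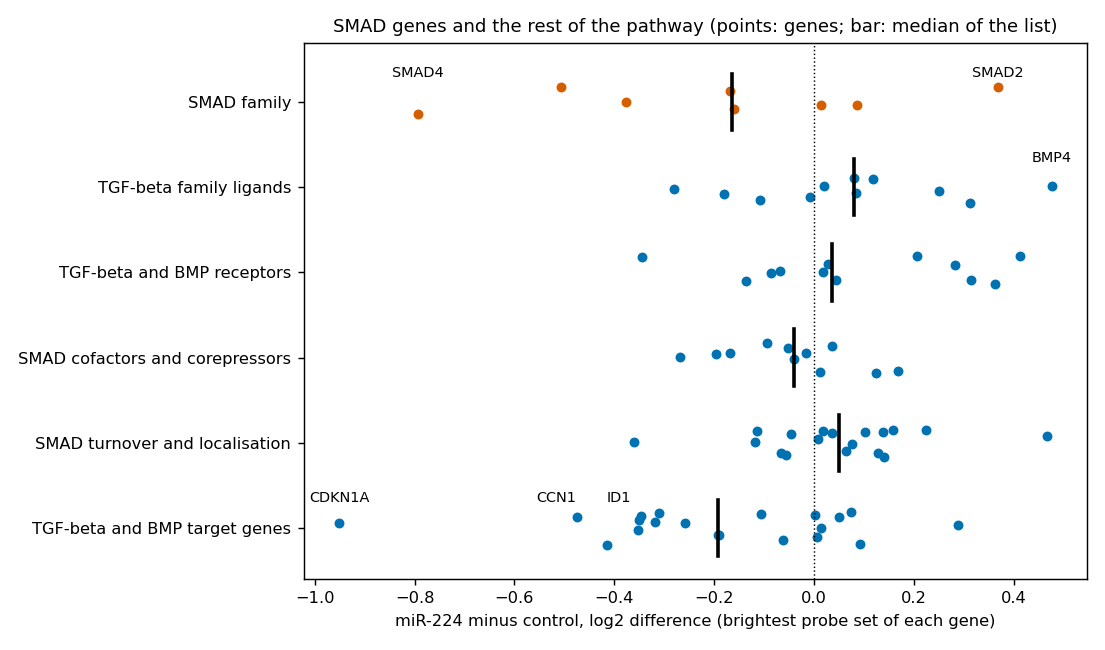
Log2 difference, miR-224 minus control, on the brightest probe set of each gene (x axis) for the SMAD family and 5 lists of its pathway (rows), with the median of each list as a bar. The medians run from -0.19 for the target genes to 0.08 for the ligands, and the SMAD genes spread from -0.79 for SMAD4 to 0.37 for SMAD2.

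The genes whose pattern was most like that of SMAD4 202527_s_at were sought among genes no dimmer than the median gene (4.75), by the root mean square distance between the 3 within-experiment differences. The closest was ETS1, at -0.18, -0.11 and -1.59 in experiments 1, 2 and 3 (distance 0.19). It was followed by ZNF503 (-0.16, -0.31 and -1.33, distance 0.23) and INSIG1 (0.03, -0.42 and -1.37, distance 0.26). PDGFA and TP53INP1 came next, each at a distance of 0.27. No other SMAD gene was among these 5, but SMAD7 (mean level 4.73) and SMAD9 (3.73) were too dim to be searched. With 5 places for all genes at that level, the absence of the others says little about likeness within the family.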

How the data were processed

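The data are 6 one-colour Affymetrix expression arrays of HCT116 cells with 54675 probe sets. RMA and Partek are the tools of the authors, per the submitters' processing notes, without versions or settings. The deposited table was read as log2 expression, since its values spanned 1.47 to 13.6 with array medians from 3.41 to 3.53. RMA makes the arrays' distributions alike, so a shift shared by most genes would not show.

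The fits leave out 62 control probe sets. Of the other 54613, 41091 had 1 gene symbol, 1801 several and 11721 none listed. Differences were tested with limma 3.58.1 in R 4.3.3 (lmFit, eBayes, two-sided, Benjamini-Hochberg over all probe sets, threshold 0.05), with experiment as a block, since the series states pairs. This leaves 2 residual degrees of freedom, and standard errors borrow from all probe sets. Same-numbered arrays deviated together (correlations across probe sets of 0.902, 0.734 and 0.783, and -0.777 to 0.474 otherwise). Deviations were taken from the mean of each group, which pushes the values for unlike numbers down. The negative ones all involved experiment 1, and unlike arrays of experiments 2 and 3 correlated at 0.474. In simulated data with 100 probe sets changed by 1 and 100 by 2 log2 units among 54613, the blocked fit recovered 36% and 81%, with 0 false calls. The simulated noise used each probe set's own residual SD, estimated on those 2 degrees of freedom. The shares therefore do not tell how many real changes of such sizes would be found.

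Named were all SMAD probe sets, the 3 brightest genes of each pathway list with any that passed, and the 5 genes most like SMAD4. Lists were written from memory, and members and lists were chosen with earlier results of these data known. Alternatives were the fit without the block, each experiment left out, an intensity trend with robust variances, only probe sets at or above the median level, quantile normalization, median centring, and 1 value per gene (brightest or mean). Some listed genes were not analysed here. Python 3.11.15 with matplotlib 3.10.9 drew the figures.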

Additional observations from a re-analysis of the deposited data

How the results depend on the processing

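Of 248 recomputed differences of SMAD probe sets, 236 kept their direction and 12, on 6 probe sets, did not. The 236 include fits that leave the difference itself unchanged and so could not reverse it. These are the fits without the block, with the intensity trend and robust variances, at or above the median level, and on the brightest probe sets. No SMAD probe set passed the threshold under any alternative run. Over all probe sets the count of calls was 0 in the analysis given (5352 at an unadjusted p under 0.05). It was 28 with an intensity trend and robust variances, and with an experiment left out it ranged from 0 to 137, the highest being without experiment 1. Each fit with an experiment left out had 1 residual degree of freedom. Among the pathway genes, 1 (CDKN1A) was called with the intensity trend and robust variances, and 0 to 1 with an experiment left out (CDKN1A without experiment 1). Without the replicate block, which ignores the pairing, SMAD4 202527_s_at stood at the same -0.79 with a standard error of 0.28 and an adjusted p of 1, and 0 probe sets passed. The average of all 5 SMAD4 probe sets, dim ones included, is another quantity and stood at -0.29. With an experiment left out, 202527_s_at ranged from -1.05 to -0.34. The 6 probe sets with reversals had differences of -0.13 to 0.09 in the analysis given, and on each the sign differed between experiments. What made the experiments differ was not tested. With an experiment left out, SMAD1 210993_s_at ranged from -0.11 to 0.0062, and it was 0.0173 with quantile normalization. Likewise SMAD2 239271_at ranged from -0.0666 to 0.14, and was -0.0136 with quantile normalization and -0.0064 with median centring. SMAD6 207069_s_at ranged from -0.087 to 0.10 and was -0.0041 with median centring. With an experiment left out, SMAD3 205397_x_at ranged from -0.23 to 0.0363, SMAD4 1565702_at from -0.0223 to 0.17 and SMAD9 227719_at from -0.0735 to 0.30. Signal over background limits the 8 SMAD probe sets below the median level. Their differences may be compressed, which was not tested.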
